A study of Mus musculus with 8 samples.

Results

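The genes described here encode the actin and tubulin isoforms that build the filaments and microtubules of neutrophils: the cytoplasmic actins Actb and Actg1, the alpha-tubulins Tuba1a, Tuba1b, Tuba1c and Tuba4a, and the beta-tubulins Tubb5, Tubb4b, Tubb6 and Tubb2a. They were taken by symbol, and all 10 were found among the 55414 genes of the count tables. The RNA came from spleen neutrophils of 4 WT and 4 *Cxcr2-/-* mice, all FVB, aged 10 weeks and kept in a SOPF facility, with 1 library per mouse. The cells were enriched for CD11b and sorted as CD45+, CD11b+, Ly6G+ and F4/80-. The knock-out line had been backcrossed into FVB, and the methods do not say that the WT mice were littermates. The knock-out is carried by every cell of the animal and not by neutrophils alone. The study also stained F-actin, with phalloidin, and alpha-tubulin, with an antibody, in spleen neutrophils and reported both as lower in *Cxcr2-/-* cells. It read them by flow cytometry as the percentage of positive cells and as mean fluorescence. F-actin is the filament form, so these are measures unlike the RNA of an isoform. The comparison asks how the RNA of each isoform stood in the same genotypes. Protein was not analysed here.

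Actin monomers polymerise into the filaments that push out the leading edge and the phagocytic cup of a neutrophil, and beta- and gamma-actin are the forms made outside muscle. Alpha- and beta-tubulin pair into the dimers from which microtubules and the mitotic spindle are assembled, and each is encoded by several genes whose products differ mostly at their C-terminal tails. Cells also degrade tubulin RNA when free tubulin dimer is abundant, through TTC5, which reads the first residues of tubulin as they leave the ribosome.

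Each library held between 34220182 and 46233555 counts on genes in WT and between 37549648 and 43789253 in *Cxcr2-/-* mice. The top 10 genes by counts made up 9.45% to 11.6% of a WT library and 17.0% to 19.2% of a *Cxcr2-/-* library. *Cxcr2*, the targeted gene, had 1956 ± 221 CPM (counts scaled by the TMM-normalized library size, mean ± SD, n = 4) in WT against 17.1 ± 3.46 CPM in *Cxcr2-/-* cells. Markers are called higher or lower at an adjusted p under 0.05 in the edgeR test described below. Among all genes tested, 23.7% were higher and 21.0% lower by that rule. Of 12 neutrophil markers, 9 were higher and 2 lower in *Cxcr2-/-* libraries. The 2 lower were *Cxcr2* itself and Csf3r, at 6960 CPM in WT against 3334 CPM in *Cxcr2-/-* cells. The summed level of the 12 ran from 50137 to 68255 CPM in WT and from 107052 to 139425 CPM in *Cxcr2-/-* libraries. Its largest parts were S100a9, at means of 13530 and 33865 CPM, and S100a8, at 12054 and 28418.5 CPM. Genes of dividing and of early granulocytic cells stood higher in *Cxcr2-/-* libraries as well. All 12 markers of cycling cells were higher, with a sum of 318 to 365 CPM in WT and of 1049 to 1157 CPM in *Cxcr2-/-* libraries. The sum of 8 granulocyte precursor genes went from 106.5 to 122 CPM in WT and from 279.5 to 562 CPM in *Cxcr2-/-* libraries, with 6 genes higher. Most B cell markers fell. Calls among monocyte and macrophage markers were near the shares of all genes in each direction. B cell markers summed to 58.6 to 99.9 CPM in WT and 29.3 to 53.3 CPM in *Cxcr2-/-* libraries, with 6 of 8 lower. Monocyte and macrophage markers summed to 703 to 818 CPM in WT and 845 to 966 CPM in *Cxcr2-/-* libraries, with 2 of 9 higher and 2 lower, and Adgre1, which encodes F4/80, averaged 30.6 CPM in WT against 12.3 CPM in *Cxcr2-/-* cells. Of 4 tested eosinophil, basophil and mast cell markers, 2 were higher and 2 lower. Prg2 and Epx rose, from 1.21 to 8.74 CPM and from 0.332 to 2.25 CPM, and Siglecf and Ccr3 fell. The whole list of 7 genes summed to 49.1 to 69.5 CPM in WT and 37.7 to 64.4 CPM in *Cxcr2-/-* libraries. Platelet and erythroid markers each summed to at most 12.8 CPM in any library, with 2 of 3 tested platelet markers lower, and T and NK cell markers ran from 85.7 to 139 CPM, most of it Cd3d, with means of 99.1 and 108 CPM. The part of these cell types in the results that follow was not tested.

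Of the isoforms, 5 were higher, 1 was lower and 4 did not pass in *Cxcr2-/-* compared with WT neutrophils. Actb, Tuba1b, Tuba4a, Tubb5 and Tubb4b rose and Tubb6 fell, at an adjusted p under 0.05 in edgeR's quasi-likelihood test fitted on 16778 genes, while Actg1, Tuba1a, Tuba1c and Tubb2a did not pass. Among all genes tested, 23.7% were higher and 21.0% lower by the same rule. A change of at least 1.5-fold was also reached by 4 isoforms that rose and 1 that fell. Of all genes, 15.7% rose and another 15.7% fell by that rule. The 4 *Cxcr2-/-* values lay wholly above the 4 WT values for 5 isoforms and wholly below for 1, against 22.5% and 19.1% of all genes. The median log2 fold change was 0.34 over the 10 isoforms and 0.013 over all genes. With upper-quartile in place of TMM normalization, the genes passing went from 3969 higher and 3526 lower to 3076 higher and 4391 lower and the median of all genes to -0.11. Under that scaling 4 isoforms rose and 1 fell. In libraries made from many cells, more RNA per cell and more cells of a type that is rich in that RNA cannot be told apart.

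**Figure D1:**
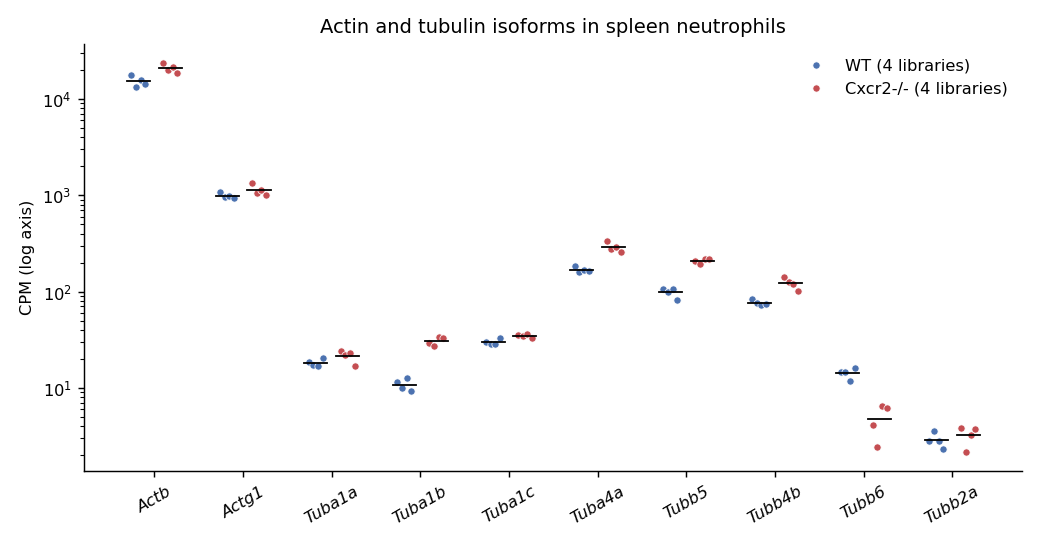
CPM (log axis) of the 10 isoforms in each of the 4 WT and 4 Cxcr2-/- libraries, with the group mean as a bar. Actb stands at 13228 CPM or more in every library and Tubb2a below 4 CPM, and Tuba1b and Tubb6 show the widest gaps between the groups.

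Actb, which encodes beta-actin, was one of the most abundant RNAs of these cells, with 1.42% to 2.11% of all counts on genes. It (ENSMUSG00000029580) lies on chromosome 5 from 142903115 to 142906754 (GRCm38, minus strand), and Actg1 (ENSMUSG00000062825), which encodes gamma-actin, on chromosome 11 from 120345690 to 120348542. The coding sequences of the 2 genes were identical at 88.7% of their bases, and none of the 120-base windows of the longest Actb transcript occurred in another gene. The first 36 coding bases are shown because the proteins differ at their N-terminus, with capitals at the 9 bases that differ between the genes.
Actb: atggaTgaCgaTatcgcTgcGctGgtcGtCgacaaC
Actg1: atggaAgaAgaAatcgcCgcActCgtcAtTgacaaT
For Actg1, 47.4% of the windows also occurred in other genes, mostly in Gm12715. Pairs that lie wholly inside such stretches may lack a unique place in the genome, which was not examined.

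Actb stood at 17890.3, 13228, 15919.5 and 14472 CPM in the WT libraries and at 23407, 19927, 21345 and 18556 CPM in the *Cxcr2-/-* libraries. The lowest *Cxcr2-/-* library was just above the highest WT library. The means of 15378 ± 2004 and 20809 ± 2073 CPM (SD, n = 4 each) differed 1.35-fold, with a 95% interval of 1.09 to 1.68, and the log2 fold change was 0.44 (SE 0.14, edgeR adjusted p = 0.0256). Its place among all genes by counts went from 1 or 2 in WT libraries to 4 or 5 in *Cxcr2-/-* libraries, although its own level was higher there. The call depended on single libraries. Its adjusted p was 0.105 without WT replicate 2, 0.0612 without WT replicate 3, 0.0894 without WT replicate 4, 0.05005 without *Cxcr2-/-* replicate 1 and 0.0595 without *Cxcr2-/-* replicate 3, and it was 0.0814 with upper-quartile normalization.

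Actg1 was read at 1084, 961, 975 and 945 CPM in WT and at 1353, 1053, 1138 and 1016 CPM in *Cxcr2-/-* libraries. The groups overlapped, since 2 *Cxcr2-/-* libraries lay below the highest WT library. Its log2 fold change was 0.20 (SE 0.11, 95% interval of the fold 0.97 to 1.37) and did not pass, with an adjusted p of 0.174 in edgeR. A rise of up to 1.37-fold thus lies inside the interval and could not be told from no change at this spread.

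The alpha-tubulins divide by sequence into a closely related group of 3 genes on chromosome 15 and Tuba4a on chromosome 1. Tuba1a (ENSMUSG00000072235, 98949837 to 98953703, minus strand), Tuba1b (ENSMUSG00000023004, 98931425 to 98934565, minus strand) and Tuba1c (ENSMUSG00000043091, 99029891 to 99038110, plus strand) shared 97.1% to 98.3% of their coding bases with each other, and Tuba4a (ENSMUSG00000026202, 75214228 to 75219865, minus strand) shared 84.7% to 85.2% with them. The last 48 coding bases, stop codon included, are shown for Tuba1c and Tuba4a because the C-terminal tail is where tubulins are modified, with capitals at the last codon before the stop.
Tuba1c: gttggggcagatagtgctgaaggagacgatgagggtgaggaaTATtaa
Tuba4a: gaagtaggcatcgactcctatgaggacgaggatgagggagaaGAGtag
Tuba1c ends in a tyrosine codon, the residue that the vasohibins remove and that the ligase Ttl puts back. Tuba4a ends in a glutamate codon and so is made without that tyrosine.

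Tuba1b, a widely expressed alpha-tubulin, had the largest rise of the 10 isoforms. It was read at 11.4, 10.0, 12.5 and 9.17 CPM in WT and at 29.3, 27.4, 33.8 and 32.7 CPM in *Cxcr2-/-* libraries, which came from 317 to 515 and from 991 to 1346 counts. Every *Cxcr2-/-* library was more than 2-fold above every WT library. The fold change was 2.86 (95% interval 2.38 to 3.43), with a log2 fold change of 1.51 (SE 0.12, edgeR adjusted p = 1.32e-06), and it stayed between 1.45 and 1.58 when any 1 library was left out. The sum of the cycling cell markers moved in the same direction, from 318 to 365 CPM in WT to 1049 to 1157 CPM in *Cxcr2-/-* libraries, and its part in this change was not tested.

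Its neighbours on the chromosome did not pass. Tuba1a was at 18.5, 17.3, 16.9 and 20.4 CPM in WT and at 24.4, 21.97, 22.8 and 16.9 CPM in *Cxcr2-/-* libraries. In *Cxcr2-/-* mice, 3 libraries lay above all WT libraries, and replicate 4 lay within the WT range. The log2 fold change was 0.24 (SE 0.12, edgeR adjusted p = 0.139), and without *Cxcr2-/-* replicate 4 it was 0.32 with an adjusted p of 0.0395. Tuba1c was at 30.2, 28.4, 28.7 and 33.1 CPM in WT and at 35.6, 34.5, 35.8 and 32.6 CPM in *Cxcr2-/-* libraries, again with 1 *Cxcr2-/-* library inside the WT range. Its log2 fold change was 0.20 (SE 0.09, edgeR adjusted p = 0.0778), with a 95% interval of the fold of 1.01 to 1.31.

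The levels of these 3 genes carry an uncertainty of counting. Of the 120-base windows of the longest transcript, 34.2% of Tuba1a, 48.1% of Tuba1b and 50.8% of Tuba1c also occurred in another of the 10 isoforms. Counted over any other gene, the shares were 62.5%, 66.7% and 50.8%. In the GENCODE M21 annotation a further gene model, Gm49450, covers 26.2% of the exon bases of Tuba1a and 22.7% of those of Tuba1b on the same strand, and it had a count of 0 in each of the 8 libraries. Since Gm49450 is listed among the counted genes, the annotation used for counting holds it. Pairs inside the shared stretches meet more than 1 gene and are left uncounted where its exons there are those of M21. The levels of Tuba1a, Tuba1b and Tuba1c may therefore be too low.

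Tuba4a was the most abundant alpha-tubulin RNA, at 184, 158, 166 and 163 CPM in WT and at 334, 278, 288 and 257 CPM in *Cxcr2-/-* libraries. The groups did not overlap. It rose 1.72-fold (95% interval 1.48 to 2.01, log2 fold change 0.79, SE 0.10, edgeR adjusted p = 5.65e-05). On the opposite strand Stk16, a serine/threonine kinase gene, overlaps 37.3% of the exon bases of Tuba4a and had 1614 to 3063 counts per library. The strand setting of the counting is not given in the sources used here, so reads of the 2 genes may not be separated in that stretch. *Cxcr2* lies on chromosome 1 as well, at about 74154000 to 74161200, and the knock-out line was backcrossed into FVB. Whether sequence linked to the targeted gene had a part in the rise of Tuba4a was not tested.

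The beta-tubulins moved in opposite directions. Tubb5 (ENSMUSG00000001525), the class I isoform that most cell types use, lies on chromosome 17 from 35833921 to 35838306 and Tubb4b (ENSMUSG00000036752), a class IV isoform, on chromosome 2 from 25222160 to 25224702, both on the minus strand. Tubb2a (ENSMUSG00000058672), a class II isoform, lies on chromosome 13 from 34074274 to 34078007 on the minus strand. The coding sequences of the 4 beta-tubulins shared 80.2% to 84.5% of bases, further apart than Tuba1a, Tuba1b and Tuba1c. The first 36 coding bases are shown for an alpha- and 3 beta-tubulins because they begin with the stretch that TTC5 reads, in capitals.
Tuba1b: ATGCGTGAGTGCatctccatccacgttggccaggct
Tubb5: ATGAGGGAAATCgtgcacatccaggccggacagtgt
Tubb4b: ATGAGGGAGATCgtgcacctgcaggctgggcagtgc
Tubb2a: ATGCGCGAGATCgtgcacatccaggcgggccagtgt

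Tubb5 was at 105, 99.97, 107 and 82.6 CPM in WT and at 209.6, 195, 217 and 216 CPM in *Cxcr2-/-* libraries. The groups were far apart, and the *Cxcr2-/-* libraries differed little among themselves. The cycling cell markers were higher in the same libraries, and their part was not tested. The rise was 2.12-fold (95% interval 1.82 to 2.46), with a log2 fold change of 1.08 (SE 0.10, edgeR adjusted p = 3.83e-06). None of the windows of its longest transcript occurred in another gene. Tubb4b was at 84.4, 75.4, 73.1 and 73.8 CPM in WT and at 140.0, 126, 120.5 and 102 CPM in *Cxcr2-/-* libraries, again without overlap. It rose 1.59-fold (95% interval 1.36 to 1.86, log2 fold change 0.67, SE 0.10, edgeR adjusted p = 0.000211), and 23.1% of its windows occurred elsewhere, mostly in the pseudogene Tubb4b-ps1.

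Tubb6 (ENSMUSG00000001473), a class V isoform listed on chromosome 18 from 67390717 to 67402749, was the isoform that fell. It was at 14.6, 14.6, 11.7 and 16.2 CPM in WT and at 4.07, 2.41, 6.43 and 6.17 CPM in *Cxcr2-/-* libraries, from 436 to 725 and 87 to 254 counts. All WT libraries were above all *Cxcr2-/-* libraries, and the *Cxcr2-/-* values were the most spread of any isoform relative to their mean. The level in *Cxcr2-/-* neutrophils was 0.336 of the WT level (95% interval 0.230 to 0.490), a log2 fold change of -1.57 (SE 0.25, edgeR adjusted p = 0.000272). The monocyte and macrophage genes Csf1r, at 442 CPM in WT against 232 CPM in *Cxcr2-/-* cells, and Adgre1 were lower as well, while Ly6c2, at 239 against 627 CPM, and Ccr2, at 7.29 against 24.1 CPM, of the same list were higher. The part of these cells in the fall of Tubb6 was not tested.

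Tubb2a was the rarest isoform in WT libraries, at 2.81, 3.58, 2.83 and 2.31 CPM, and was at 3.82, 2.16, 3.20 and 3.77 CPM in *Cxcr2-/-* libraries. The groups overlapped, and the lowest of all 8 values was a *Cxcr2-/-* library. Its log2 fold change of 0.16 (SE 0.22, edgeR adjusted p = 0.578) had a 95% interval of the fold from 0.80 to 1.57. Of its windows, 32.4% also occurred in the neighbouring paralogue Tubb2b.

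**Figure D2:**
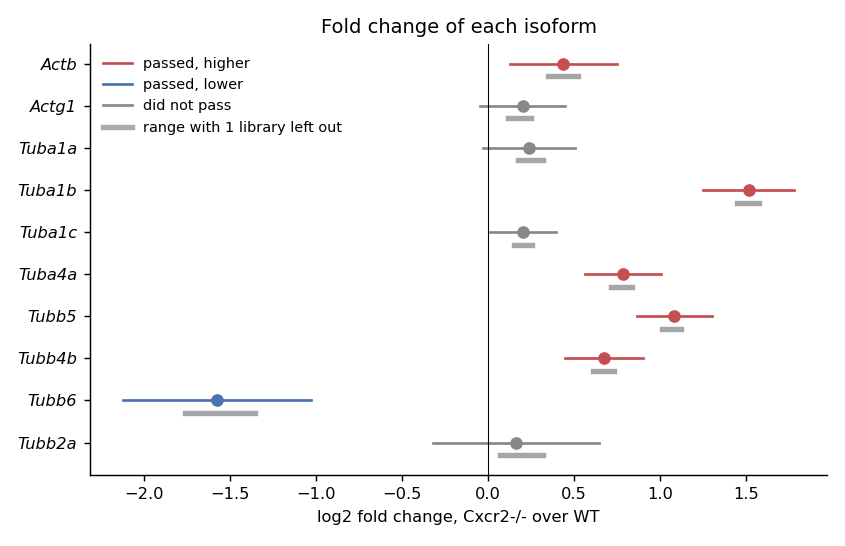
Log2 fold change of each isoform, Cxcr2-/- over WT, with its 95% interval from edgeR (thin line) and the range of the estimate when each of the 8 libraries is left out in turn (thick grey line). Tuba1b (1.51) and Tubb5 (1.08) lie to the right, Tubb6 (-1.57) to the left, and the intervals of Actg1, Tuba1a and Tubb2a cross 0.

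Per kilobase of exon, which allows levels of different genes to be compared, the order of the isoforms changed between the genotypes in the lower part. In WT it ran from Actb (5740 ± 748 CPM per kb) over Actg1 (373 ± 23.7), Tuba4a (45.3 ± 3.02), Tubb4b (36.7 ± 2.50), Tubb5 (29.7 ± 3.36), Tuba1c (13.2 ± 0.946), Tuba1a (10.1 ± 0.872), Tubb6 (5.84 ± 0.773) and Tuba1b (5.75 ± 0.791) to Tubb2a (1.79 ± 0.323), as mean ± SD with n = 4. The values of Tubb6 and Tuba1b overlapped, and those of the other neighbours did not. In *Cxcr2-/-* libraries Tubb5 (62.9 ± 3.07 CPM per kb) stood level with Tubb4b (58.6 ± 7.44), and Tuba1b (16.4 ± 1.58) had reached Tuba1c (15.1 ± 0.643) and passed Tuba1a (11.9 ± 1.79). Tubb6 (1.96 ± 0.779) had come down to Tubb2a (2.01 ± 0.479). The pairs Tubb5 and Tubb4b, Tuba1b and Tuba1c, and Tubb2a and Tubb6 overlapped in *Cxcr2-/-* libraries and their order is not resolved. An alternative chosen after the data were seen divided the counts of Tuba1a and Tuba1b by the exon bases that Gm49450 does not share. Tuba1a then stood above Tuba1c in both genotypes, at 13.7 against 13.2 CPM per kb in WT and at 16.2 against 15.1 CPM per kb in *Cxcr2-/-* libraries, and Tuba1b above Tubb6 in WT, at 7.44 against 5.84 CPM per kb. The order of Tuba1a and Tuba1c is therefore not resolved either.

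Summed over the isoforms of a family, the level went from 16369 ± 2059 to 21949 ± 2219 CPM for the actins (1.34 times the WT mean), from 227 ± 12.5 to 376 ± 35.8 CPM for the alpha-tubulins (1.66 times) and from 193 ± 13.3 to 339.5 ± 15.3 CPM for the beta-tubulins (1.76 times). No library of one genotype fell within the range of the other for any of the 3 sums. Within the families, the share of Tuba1b in the alpha-tubulin RNA per kilobase was 6.55% to 9.11% in WT and 11.6% to 15.8% in *Cxcr2-/-* libraries. Tuba4a kept the largest share in both genotypes, from 58.9% to 62.7% in WT and from 62.7% to 66.9% in *Cxcr2-/-* libraries. Of the beta-tubulin RNA, Tubb5 made up 36.4% to 43.6% in WT and 46.99% to 54.6% in *Cxcr2-/-* libraries, and Tubb6 made up 6.48% to 9.72% and 0.814% to 2.13%.

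**Figure D3:**
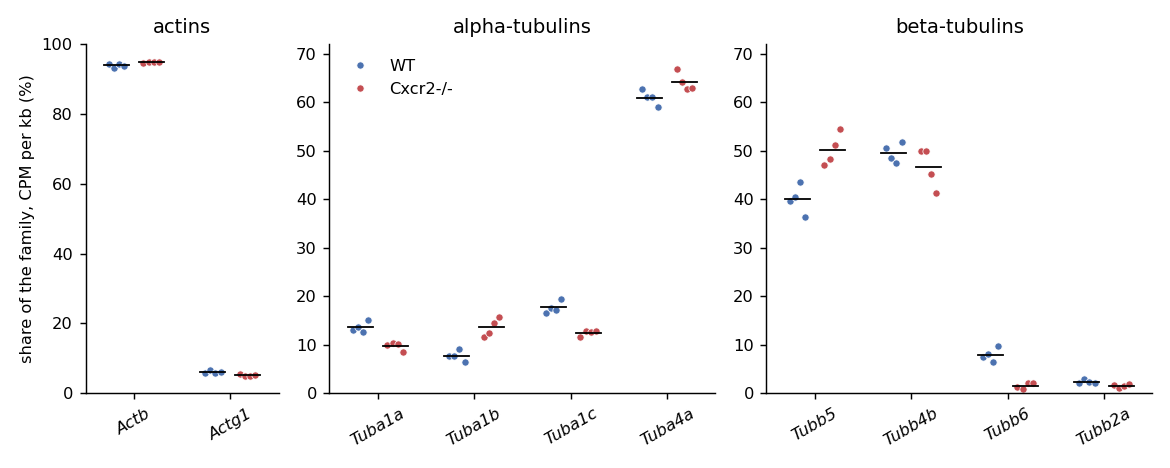
Share of each isoform in the summed CPM per kilobase of its family (%), for actins, alpha-tubulins and beta-tubulins, in each of the 4 WT and 4 Cxcr2-/- libraries with the group mean as a bar. Tuba1b and Tubb5 take larger shares in Cxcr2-/- libraries, and Tubb6 goes from 7.93% to 1.57% on average.

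Ratios of isoforms within a library do not depend on how libraries are scaled, and 7 were compared with an exact permutation test over the 8 libraries, two-sided. All 7 separated the genotypes completely, with an exact permutation p = 0.0286 and the same value after Benjamini-Hochberg adjustment over the 7, which is the smallest value that 4 mice against 4 allow in this test. The log2 ratio of Tubb6 to Tubb5 was -2.80 ± 0.347 in WT and -5.56 ± 0.589 in *Cxcr2-/-* libraries (SD, n = 4), a difference of -2.76. The ratio of Tuba1a to Tuba1b turned over, from 0.77 ± 0.298 in WT to -0.52 ± 0.313 in *Cxcr2-/-* libraries on the log2 scale of counts. Tuba1a was thus the more counted of the 2 in every WT library and Tuba1b in every *Cxcr2-/-* library. The ratio of Tuba1c to Tuba1b went from 1.49 ± 0.274 to 0.17 ± 0.159, and that of Tuba4a to Tuba1b from 3.97 ± 0.177 to 3.23 ± 0.243. Among the beta-tubulins, Tubb5 gained on each of the others. Tubb4b to Tubb5 went from -0.36 ± 0.162 to -0.78 ± 0.227, and Tubb2a to Tubb5 from -5.11 ± 0.206 to -6.05 ± 0.325. The smallest difference was that of Actb to Actg1, from 3.95 ± 0.120 to 4.19 ± 0.0579, a difference of 0.25. Ratios with Tuba1b or with Tubb5 share that gene and are not independent of each other. These 2 isoforms had the largest rises, at log2 fold changes of 1.51 and 1.08, so such ratios in part restate them. How often ratios of other gene pairs separate the genotypes was not counted. Among single genes, 22.5% lay wholly higher and 19.1% wholly lower in *Cxcr2-/-* libraries.

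**Figure D4:**
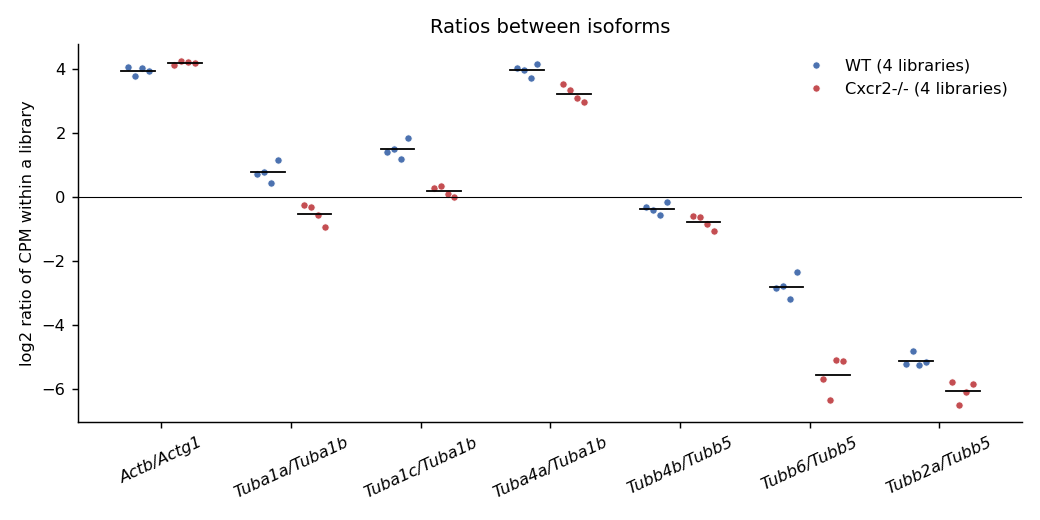
Log2 ratio of the CPM of 2 isoforms within each of the 4 WT and 4 Cxcr2-/- libraries, with the group mean as a bar. The 2 groups are apart in all 7 ratios, most for Tubb6 over Tubb5, at -2.80 in WT and -5.56 in Cxcr2-/- libraries.

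The other genes of the families were at few CPM, except Acta2. Of 16 further actin and tubulin genes, 7 passed the filter on low counts, 4 rose, 2 fell and 1 did not pass. Acta2, the smooth muscle alpha-actin, fell from 60.1 ± 8.17 to 18.6 ± 3.21 CPM (SD, n = 4; log2 fold change -1.69, edgeR adjusted p = 1.46e-06), the opposite direction to Actb. Tubb1, the beta-tubulin of platelets, fell from 0.708 ± 0.0732 to 0.216 ± 0.111 CPM (edgeR adjusted p = 0.00499), beside a sum of platelet markers, Tubb1 included, of 6.85 to 8.85 CPM in WT and 4.37 to 7.05 CPM in *Cxcr2-/-* libraries. The divergent and centrosomal tubulins Tube1 (log2 fold change 1.29), Tubg1 (0.80) and Tubd1 (0.68) and the alpha-tubulin Tuba8 (0.79) rose, all at mean levels below 7 CPM, and the log2 fold change of Tubb4a was -0.51 with an adjusted p of 0.189. The 9 genes that the filter left out, among them the muscle actins Acta1 and Actc1 and the neuronal Tubb3, had at most 17 counts in any library.

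The genes whose products handle actin and tubulin were described as lists, beside the 23.7% of all genes that rose and the 21.0% that fell. Of 26 genes for actin monomer binding, capping and filament turnover, 12 rose and 2 fell, with a median log2 fold change of 0.30. The gelsolin-family capping protein Capg rose from 136 ± 12.3 to 275 ± 45.6 CPM, and the filament-severing proteins Dstn, from 223 ± 19.96 to 443 ± 53.1 CPM, and Cfl1, cofilin, from 587 ± 100.3 to 1050 ± 111 CPM (SD, n = 4). Ssh2, a phosphatase that activates cofilin, fell from 1475 ± 101 to 756 ± 16.8 CPM (log2 fold change -0.96, edgeR adjusted p = 7.86e-06). Coro1c, a coronin, fell slightly (log2 fold change -0.23, adjusted p = 0.0262), a call that was lost without WT replicate 1 or 4 or *Cxcr2-/-* replicate 2 or 4, with adjusted p up to 0.0857. Tmsb4x, the main monomer-sequestering thymosin, named here after its values were seen, averaged 4246 CPM in WT against 4506 CPM in *Cxcr2-/-* cells and did not pass (adjusted p = 0.660).

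Of 22 genes for actin and tubulin folding, 15 rose and 0 fell by edgeR, with 0 lower at an unadjusted p under 0.05 and 0 by DESeq2, and the median log2 fold change was 0.59. They include subunits of the CCT chaperonin, the chamber in which both actin and tubulin fold, such as Cct5 (27.9 ± 2.34 to 44.0 ± 1.30 CPM), Cct7 (38.6 ± 3.57 to 58.3 ± 2.22 CPM) and Cct2 (31.5 ± 3.16 to 46.97 ± 3.97 CPM). Of 15 genes for tubulin modification and tubulin RNA decay, 8 rose and 0 fell by edgeR, likewise with 0 lower at an unadjusted p under 0.05 and 0 by DESeq2, and the median log2 fold change was 0.45. Other settings gave 1 gene that fell, in the folding list with upper-quartile normalization and in the modification list with upper-quartile normalization, total-count scaling or protein-coding genes only. Agtpbp1, which trims glutamates from tubulin tails, rose from 39.7 ± 2.60 to 70.1 ± 9.92 CPM, and Sirt2, a tubulin deacetylase, from 48.1 ± 3.50 to 71.6 ± 6.78 CPM. Ttc5 and Ttl were named after their values were seen. Ttc5 averaged 19.8 CPM in WT against 17.4 CPM in *Cxcr2-/-* cells (adjusted p = 0.133), and Ttl, the tyrosine ligase, at 1.62 and 1.79 CPM (adjusted p = 0.756).

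Serum response factor, SRF, and its actin-sensing partners of the MRTF family drive many cytoskeletal genes, the actins among them. Of 16 tested genes of this list, 9 rose and 1 fell, with a median log2 fold change of 0.43. Flna, which crosslinks actin filaments, rose from 3454 ± 387 to 6156 ± 1388 CPM, Vcl, vinculin, from 238 ± 14.0 to 385 ± 73.3 CPM, and Cnn2, a calponin, from 585 ± 83.2 to 912 ± 124 CPM. Tpm4, a tropomyosin, fell from 494 ± 12.8 to 271 ± 26.4 CPM (log2 fold change -0.86, edgeR adjusted p = 1.73e-05). Srf, named after its values were seen, averaged 55.0 CPM in WT against 54.1 CPM in *Cxcr2-/-* cells (adjusted p = 0.915).

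Of 25 genes for microtubule binding and nucleation, 15 rose and 4 fell, with a median log2 fold change of 0.35. Ckap5, a microtubule polymerase, rose most among those of at least 5 in average log2 CPM, from 43.2 ± 1.20 to 107 ± 10.2 CPM (log2 fold change 1.31, edgeR adjusted p = 3.92e-07). Clasp1, which stabilises plus ends, rose from 86.9 ± 10.5 to 146 ± 9.89 CPM and Pcnt, pericentrin of the centrosome, from 33.8 ± 2.64 to 51.2 ± 4.68 CPM. The plus-end proteins Mapre2 (76.8 ± 5.37 to 49.8 ± 2.69 CPM) and Clip1 (360.4 ± 28.0 to 279.6 ± 28.4 CPM) fell. The cycling cell markers given above moved with these lists, and their part was not tested.

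**Figure D5:**
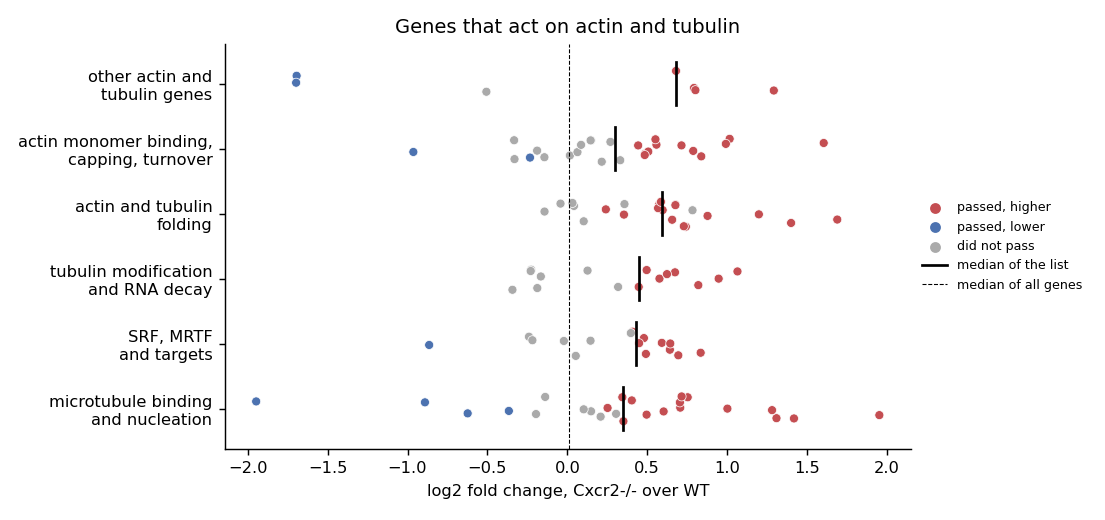
Log2 fold change, Cxcr2-/- over WT, of each tested gene in 6 lists of genes that belong to or act on actin and tubulin, coloured by whether it passed at an adjusted p under 0.05, with the median of each list (bar) and of all genes (dashed line, 0.013). The list medians lie between 0.30 and 0.68, and the lists for folding and for tubulin modification have no gene that passed as lower.

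Of the 10 isoforms, 8 had a RefSeq promoter sequence of 300 bases (GRCm38.p6, 250 before to 50 after the start), and these, which leave out Actb and Tubb6, were searched on both strands for CCAAT, for TTTGAA, which is found in promoters of late cell cycle genes, for TATAAA and for the CArG box, which SRF binds. CCAAT was present in 5 of the 8 and in 37.4% of all 32851 promoters, the CArG box in 1 and 1.63%, TTTGAA in 1 and 17.9%, and TATAAA in 2 and 13.6%. The stretches of 200 bases from 250 to 51 before the start are shown for 3 isoforms because they hold the CArG box, the TTTGAA and most of the CCAAT matches, in capitals. That of Actg1 (chr11:120348546-120348745, minus strand) holds the CArG box and 1 CCAAT, that of Tubb5 (chr17:35838352-35838551, minus strand) 2 CCAAT, and that of Tubb4b (chr2:25224753-25224952, minus strand) 4 CCAAT and the TTTGAA. The matches do not overlap each other.
Actg1: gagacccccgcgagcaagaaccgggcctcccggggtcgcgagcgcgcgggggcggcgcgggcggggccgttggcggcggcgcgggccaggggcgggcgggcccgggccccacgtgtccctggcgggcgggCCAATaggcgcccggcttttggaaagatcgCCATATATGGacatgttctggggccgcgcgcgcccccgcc
Tubb5: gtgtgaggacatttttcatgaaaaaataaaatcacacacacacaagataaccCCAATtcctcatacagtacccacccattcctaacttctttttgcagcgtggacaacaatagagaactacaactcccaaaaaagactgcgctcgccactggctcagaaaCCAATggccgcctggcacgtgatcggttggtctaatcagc
Tubb4b: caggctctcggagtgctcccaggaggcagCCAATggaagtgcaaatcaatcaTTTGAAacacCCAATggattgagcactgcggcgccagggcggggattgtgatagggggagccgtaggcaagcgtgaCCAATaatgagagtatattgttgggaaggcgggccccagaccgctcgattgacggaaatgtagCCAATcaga
Actg1, with the CArG box, did not pass, Actb was not searched, and Tuba1b, with the largest rise, held none of the 4 motifs in its 300 bases.

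The isoforms were also compared by their pattern over the 8 libraries, as the root mean square difference of log2 CPM after each gene was centred on its own mean. The closest pair was Tuba4a and Tubb4b, at 0.080, an alpha- and a beta-tubulin on different chromosomes, and the most distant was Tuba1b and Tubb6, at 1.64. Among 4226 genes that averaged at least 5 in log2 CPM, the patterns nearest to that of Actb were those of Mrgpra2b, a Mas-related receptor, Snx3, a sorting nexin, and Reep5, a protein that shapes the endoplasmic reticulum, all at 0.046. Nearest to Tuba1b were the histone genes Hist2h4, at 0.102, and Hist1h1d, at 0.106, and Rpn2, a subunit of the oligosaccharyltransferase, at 0.117. Hist2h4 went from 70.2 to 215 CPM and Hist1h1d from 80.2 to 251 CPM between WT and *Cxcr2-/-* means, and counts of single histone genes are uncertain where near-identical copies share reads. These distances are descriptions over 8 libraries of 2 genotypes, and any gene with a like difference between the genotypes comes out near.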

How the data were processed

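Total RNA of sorted spleen neutrophils was depleted of ribosomal RNA and sequenced from both ends after directional library preparation. After trimming, the authors used STAR for alignment to mm10 and HTSeq for counting, and the deposited values are whole-number counts per gene and mouse, not normalized. The submitters' processing notes name FastQC, HTSeq and mm10. The strand setting and the annotation release of the counting are not given in the sources used here. HTSeq leaves out pairs that meet several genes (2.58% to 3.12% of pairs in WT, 2.74% to 3.02% in *Cxcr2-/-* libraries), align to several places (8.23% to 11.2% and 10.4% to 13.3%) or meet no gene (31.4% to 41.5% and 26.7% to 31.9%). The first 2 kinds lower the counts of near-identical genes, and the part of these shares in the differences between genotypes was not tested.

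Groups and replicate numbers came from the labels. No 2 replicates of a group were alike within counting error (chi-square of 24.7 to 101 per gene). Symbols, positions, exons and transcripts came from GENCODE M21 (GRCm38), which has 52133 of the 55414 genes. Genes were tested in R 4.3.3 with edgeR 4.0.16 (quasi-likelihood, TMM, filterByExpr, Benjamini-Hochberg over 16778 genes). The steps were first run on simulated data with 200 changed genes. That is far fewer than the 7495 that passed here, so the simulation cannot show how the scaling behaves under so many changes. Isoform ratios were tested with the exact permutation test of scipy 1.17.1, and coding sequences were aligned with Biopython 1.88. The alternatives were DESeq2 1.42.0, which the methods name, RLE, upper-quartile and total-count scaling, no filter or at least 10 counts in every library, protein-coding genes only, the replicate number as a block, each library left out in turn, 0.5 added to the counts of the ratios, and the longest transcript as length. Exon bases outside Gm49450 as length were added after the data were seen.

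The isoforms and lists were chosen with earlier results of these data known. Beside the isoforms, the text names the 3 largest changes in each direction of each list among passing genes that averaged at least 5 in log2 CPM, every other actin and tubulin gene kept by the filter, the 3 genes most like Actb and most like Tuba1b, *Cxcr2*, markers, and overlapping or paralogous genes, and says where a gene was chosen after its values were seen. Some coding sequences are not reported here.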

Additional observations from a re-analysis of the deposited data

How the results depend on the processing

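The same isoforms kept their direction under every alternative run. Tuba1b, Tuba4a, Tubb5, Tubb4b and Tubb6 passed in all 16, Actb in 10 of 16, and Tuba1a passed in 1, without *Cxcr2-/-* replicate 4. With 1 library left out, the isoforms called higher numbered 4 to 6 and those called lower 1, and all genes called higher 3426 to 3774 and lower 3062 to 3520. Counts of list members moved by more than 1.5 times in 16 of 192 comparisons, all of them counts of at most 5 genes that fell. Left-out ratios used 3 mice against 4, where the smallest p is 0.0571, so no ratio could pass. Their differences ranged from 0.19 to 0.28 for Actb to Actg1, -1.41 to -1.15 for Tuba1a to Tuba1b, -1.41 to -1.19 for Tuba1c to Tuba1b, -0.83 to -0.65 for Tuba4a to Tuba1b, -0.49 to -0.32 for Tubb4b to Tubb5, -2.92 to -2.50 for Tubb6 to Tubb5 and -1.03 to -0.79 for Tubb2a to Tubb5. As a replicate block, same-numbered WT and *Cxcr2-/-* mice are different animals. Their deviations correlated at r = 0.18, -0.15, 0.34 and -0.31. WT replicates 1 and 3 were closest to the *Cxcr2-/-* replicate of the same number, and replicates 2 and 4 to one of another number. Whether a batch was shared by number cannot be told from these values. The block gave 3719 genes higher and 3349 lower and the same 6 isoform calls. Pairing by number left the ratio differences at 0.25, -1.29, -1.32, -0.74, -0.42, -2.76 and -0.94, in the order above, each at an exact p = 0.125, the smallest that a sign-flip permutation test on 4 pairs allows. With the longest transcript as length, 13 of 20 levels per kilobase moved by more than 1 SD, and Tubb2a and Tubb6 changed places in *Cxcr2-/-* libraries. With exon bases outside Gm49450 as length, chosen after seeing the data, Tuba1a and Tuba1c changed places in both genotypes and Tuba1b and Tubb6 in WT. Depth limits Tubb2a most, with 78 to 178 counts.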
